A study of Mus musculus with 13 samples.

Results

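The miR-30 family was described here by its 5 members on the array, mmu-miR-30a-5p, mmu-miR-30b-5p, mmu-miR-30c-5p, mmu-miR-30d-5p and mmu-miR-30e-5p, named without the species prefix from here on. With earlier results of these data known, these members were chosen by their names on the array, which gave 5 of the 1079 mouse miRNAs measured. The samples were 13 flank tumors grown from B78H1 cells, a mouse melanoma line without pigment. It descends from B16 as a clone that has lost MHC-I and Tap-2. Male C57BL/6 mice received the cells under the skin of the flank, and tumor RNA was taken 28 days later. In the curcumin group, 7 mice ate chow with 4% curcumin from 14 days before the injection until the end. In the control group, 6 mice ate standard chow of the same batch over the same time. The age of the mice was not given in the sources used here. Both flanks of a mouse were injected, and since the samples of each diet were as many as its mice, each tumor was taken to come from a different mouse. Each tumor was hybridized on 1 array in 1 color, and the comparison of the diets asks which miRNAs in the tumor change when curcumin is eaten.

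MicroRNAs are short RNAs that guide the silencing machinery to messenger RNAs, mainly by pairing of their seed, the bases 2 to 8 counted from the 5′ end. A hairpin precursor yields a 5p arm and a 3p arm, of which 1 is usually the more abundant. The miR-30 family is present in most tissues, and its targets are known from studies of kidney, epithelial identity, adipocytes and autophagy. Its genes lie in 3 pairs of neighboring hairpins, so that arms of 1 pair can come from a common primary transcript.

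The sequences are shown because the members are told apart by few bases, while the seed is common to those printed. They are from RefSeq (GRCm38.p6), with the seed in capitals, and 3 of the 5 members and 4 of the 6 3p arms were matched in that source.
miR-30a-5p: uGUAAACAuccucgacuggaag
miR-30e-5p: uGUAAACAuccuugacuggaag
miR-30c-5p: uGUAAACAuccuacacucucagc
miR-384-5p: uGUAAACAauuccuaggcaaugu

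Within the first 12 bases, miR-30a-5p, miR-30c-5p and miR-30e-5p were identical. Over their whole length of 22 bases, miR-30a-5p and miR-30e-5p differed by the substitution C13U, with positions counted from the 5′ end and the base of miR-30a-5p first. The 5p arm of miR-30c had the same sequence from both of its hairpins, and its signal could therefore not be assigned to 1 locus. Outside the family, miR-384-5p carries the same seed with another remaining sequence. How much of the signal of 1 member came from RNA of another member was not tested.

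On chromosome 1, Mir30a (chr1:23272269-23272339, plus strand, GRCm38.p6) and Mir30c-2 (chr1:23291701-23291784, plus strand) had 19361 bases between their hairpins, and no other annotated gene overlapped them. The hairpins of Mir30c-1 (chr4:120769534-120769622, minus strand) and Mir30e (chr4:120772606-120772697, minus strand) were 2983 bases apart on chromosome 4. Both lay within the span of Nfyc, the gene of a subunit of the CCAAT-binding factor NF-Y, and Mir30e also overlapped Mir30f. The third pair, Mir30b and Mir30d, are neighboring genes on chromosome 15.

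Signals of the arrays showed 1 tumor that stood apart. The array of curcumin tumor 5 was the dimmest, with a total mouse miRNA signal of 114095 and 272 miRNAs detected, against 150272 to 281508 and 313 to 412 on the other arrays. The arrays were on 2 slides, the first with 3 tumors of the curcumin group and 2 controls, the second with 4 from each group. Each slide had 2 lines of arrays, and since every control was in the first and every curcumin-treated tumor in the other, position and diet cannot be told apart.

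Curcumin intake went with different changes among the members. The 5p arms of miR-30b and miR-30e were lower in curcumin-treated tumors by 0.43 and 0.46 on the log2 scale, while miR-30a-5p had a higher mean by 0.25, which did not pass the threshold. Thus 2 of 5 members were called at an adjusted P-value below 0.05 by limma with Benjamini-Hochberg adjustment over all 1079 miRNAs, and both were lower. Of all miRNAs, 15.8% were called, 8.34% higher and 7.51% lower. The share of 2 in 5 was above that of all 1079 miRNAs, and it rests on 2 calls close to the threshold. It was not above that of detected miRNAs. With limma restricted to the 304 miRNAs that all tumors of either diet showed as detected, 164 were called. Among the members these were again only miR-30b-5p and miR-30e-5p, a smaller share than that of the 304. The median difference of the 5 members was -0.38 on the log2 scale, and the median over the 243 miRNAs detected on all arrays was -0.09. Unless stated otherwise, values below are summed probe signals after quantile normalization, on the log2 scale. All 5 members were detected on all 13 arrays.

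**Figure D1:**
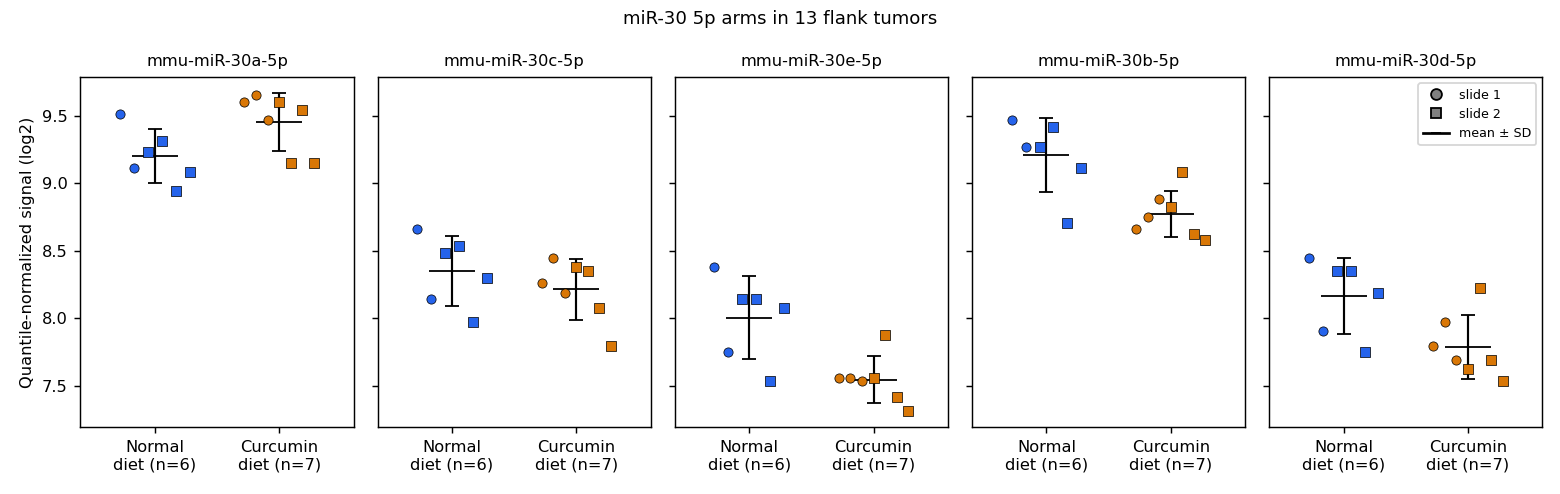
Quantile-normalized signal (log2, y axis) of the 5 members in 6 tumors of the normal diet (blue) and 7 tumors of the curcumin diet (orange), with 1 point per tumor, its symbol giving the slide, and the mean ± SD in black. For every member the points of both diets overlap, with the curcumin mean of miR-30b-5p, miR-30d-5p and miR-30e-5p below the control mean and that of miR-30a-5p above it. Heights of different panels depend on the probes and are not to be compared.

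In the locus on chromosome 1, miR-30a-5p ranged from 9.15 to 9.66 (median 9.54) in curcumin-treated tumors and from 8.95 to 9.51 (median 9.18) in controls. The groups overlapped, with 4 of 7 curcumin-treated tumors above the highest control and the other 3 within the range of the controls. Their means were 9.46 ± 0.21 (SD, n = 7) and 9.20 ± 0.20 (SD, n = 6). The difference of 0.25 (SE 0.11) had an adjusted P-value of 0.180 by limma, and 0.0554 by a two-sided exact permutation test without adjustment, which went through 1716 splits. Before normalization, the signal of miR-30a-5p was 271 to 1198 (median 687) with curcumin and 448 to 665 (median 569) without. The lowest of these belonged to the dim array. The difference depended on the processing, with 0.51 when arrays were scaled to the 75th percentile of all miRNAs, 0.50 on the dimmest of its 3 probes, and 0.10 with normexp, a model-based background correction run on the median spot signals.

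The product of both loci, miR-30c-5p, was not called as different between the diets. It ranged from 7.79 to 8.45 (median 8.26) with curcumin and from 7.97 to 8.66 (median 8.39) in controls. Only 1 curcumin-treated tumor lay below the lowest control, and none above the highest. With means of 8.21 ± 0.22 (SD, n = 7) and 8.35 ± 0.26 (SD, n = 6), the difference of -0.14 (SE 0.13) had an adjusted P-value of 0.754 by limma, and its 95% interval ran from -0.43 to 0.16. The sign was not stable: scaling each array to the 75th percentile of all miRNAs turned it to 0.21.

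In the Nfyc locus, miR-30e-5p ranged from 7.31 to 7.88 (median 7.56) in curcumin-treated tumors and from 7.54 to 8.38 (median 8.11) in controls. All but 1 of the curcumin-treated tumors lay at or below 7.56, a range in which 1 control was also found, and the highest of them was the tumor of the dim array. Means were 7.54 ± 0.17 (SD, n = 7) and 8.005 ± 0.31 (SD, n = 6), a difference of -0.46 (SE 0.13, adjusted P = 0.0401 by limma), or 1.38-fold lower. The exact permutation test without adjustment gave 0.0105. Before normalization, the signal was 109 to 257 (median 160) with curcumin and 203 to 272 (median 261) in controls.

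From chromosome 15, miR-30b-5p ranged from 8.58 to 9.08 (median 8.75) with curcumin and from 8.71 to 9.47 (median 9.27) in controls. A single control, tumor 5, lay among the curcumin-treated tumors, of which 3 were below it, and the remaining controls were above all of them. The means of 8.77 ± 0.17 (SD, n = 7) and 9.21 ± 0.27 (SD, n = 6) differed by -0.43 (SE 0.12, adjusted P = 0.0377 by limma), or 1.35-fold, and the exact permutation test without adjustment gave 0.00874.

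The other arm from chromosome 15, miR-30d-5p, ranged from 7.54 to 8.22 (median 7.69) with curcumin and from 7.75 to 8.45 (median 8.27) in controls. Below the lowest control lay 4 of 7 curcumin-treated tumors. Its means were 7.79 ± 0.24 (SD, n = 7) and 8.17 ± 0.28 (SD, n = 6), and the difference of -0.38 (SE 0.14) did not pass the threshold (adjusted P = 0.0959 by limma, 0.0274 by the exact permutation test without adjustment).

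Both calls lay close to the threshold. When 1 tumor at a time was left out, the difference of miR-30b-5p stayed between -0.53 and -0.38 and that of miR-30e-5p between -0.55 and -0.38, but each lost the threshold in 10 of 13 fits (highest adjusted P-values 0.0820 and 0.0863 by limma). In contrast, miR-30d-5p passed it without curcumin tumor 5 (adjusted P = 0.0343) and without control tumor 5 (adjusted P = 0.0455). Both calls also ended when the 75th percentile over all miRNAs set the scale, with -0.20 for miR-30b-5p (adjusted P = 0.899 by limma) and -0.28 for miR-30e-5p (adjusted P = 0.720 by limma), as did leaving out the normalization between arrays (adjusted P-values of 0.316 and 0.171 by limma). Within slide 1 the difference of miR-30b-5p was -0.60 and within slide 2 it was -0.35, and that of miR-30e-5p was -0.51 and -0.44. With the slide as a block, miR-30e-5p had an adjusted P-value of 0.0528 and miR-30b-5p of 0.0433.

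Signals of other cell types moved with diet in the same tumors, and their part in the values of the miR-30 family was not tested. In bulk tumor RNA, fewer cells of a type and less RNA per cell cannot be told apart. The marker lists were also chosen with earlier results of these data known. Of the hematopoietic markers, 5 of 5 were called higher with curcumin. Their summed quantile-normalized signal, like all sums here on the linear scale, was 365 to 1442 against 90.9 to 299 in controls. Among them, miR-150-5p was detected on no control array and miR-142-5p on 3 of 6. For comparison, 8.34% of all 1079 miRNAs were called higher and 7.51% lower. Restricting limma to the 304 miRNAs detected throughout either diet gave 164 calls. Of the fibroblast and smooth muscle markers, 3 of 6 were called higher, all of them arms of miR-199, with a sum of 781 to 1678 against 251 to 584. Not called were miR-214-3p (log2 difference 5.61, SE 1.75, adjusted P = 0.05005 by limma), miR-143-3p (0.20) and miR-145-5p (-0.05). Since miR-214-3p was detected on only 3 of 6 control arrays, its difference is not a measured size. The epithelial list had 1 call of 7, miR-205-5p, higher with curcumin and detected on only 3 of 6 control arrays. The sum of the list was 218 to 1739 against 3.32 to 165. On no array were 5 of its markers detected (miR-200a-3p, miR-200b-3p, miR-200c-3p, miR-141-3p and miR-429-3p). Of the melanocytic markers, miR-211-5p was called lower, with detection on 4 of 7 curcumin arrays, and miR-204-5p was not called. Their sum was 4.19 to 624 against 308 to 847. Among 4 skeletal muscle markers 1 was called higher, with a sum of 29.1 to 962 against 23.3 to 607. No call was made among the 2 endothelial markers, with a sum of 254 to 820 against 137 to 281, or among the 2 erythroid markers measured, with a sum of 45.4 to 277 against 39.9 to 714. Curcumin tumor 5 had the lowest fibroblast and smooth muscle sum (781) and the lowest hematopoietic sum (365) of its group. Its melanocytic sum of 624 lay within the range of the controls. In contrast, its skeletal muscle sum of 962 was the highest of all tumors, and its endothelial sum of 321 lay above all controls.

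The 3p arms of the same hairpins allow the loci to be told apart where miR-30c-5p does not. Capitals in the following sequences mark the bases that differ within each pair of related arms.
miR-30a-3p: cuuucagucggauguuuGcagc
miR-30e-3p: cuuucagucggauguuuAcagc
miR-30c-2-3p: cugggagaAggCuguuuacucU
miR-30c-1-3p: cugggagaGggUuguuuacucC

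The substitution from miR-30a-3p to miR-30e-3p was G18A, and those from miR-30c-2-3p to miR-30c-1-3p were A9G, C12U and U22C. None of the 6 3p arms passed the threshold of limma, and none had an unadjusted P-value below 0.05. From chromosome 1, miR-30a-3p differed by 0.17 (SE 0.19, adjusted P = 0.821 by limma) and miR-30c-2-3p by 0.54 (SE 0.25, adjusted P = 0.194 by limma). In the Nfyc locus the difference was -0.61 for miR-30e-3p (SE 0.28, adjusted P = 0.205 by limma) and 0.29 for miR-30c-1-3p (SE 0.65, adjusted P = 1.0 by limma), the sign of the latter turning with other scalings. From chromosome 15, miR-30b-3p differed by -0.48 (SE 0.30, adjusted P = 0.425 by limma) and miR-30d-3p by -1.04 (SE 0.49, adjusted P = 0.207 by limma).

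Detection limited these comparisons. The 3p arms of miR-30a, miR-30b and miR-30e were detected on all 13 arrays, those of miR-30c-1 and miR-30d on 12, and that of miR-30c-2 on 11. The fourth miRNA with the seed printed above, miR-384-5p, was detected on no array, and no fold change is given for it.

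**Figure D2:**
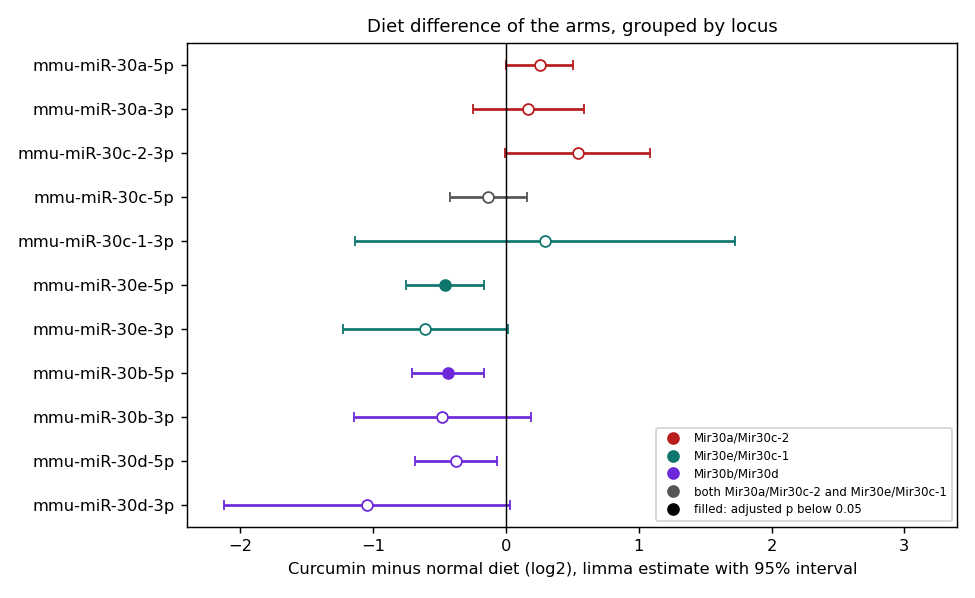
Difference of curcumin minus normal diet (log2, x axis) of 5 members and 6 3p arms, ordered and colored by locus, as the limma estimate with its 95% interval (7 and 6 tumors). Filled points, miR-30e-5p and miR-30b-5p, have an adjusted P-value below 0.05, and the widest intervals belong to the dim arms miR-30c-1-3p and miR-30d-3p.

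To compare the 3 loci with each other, the log2 difference of 2 members was taken within each tumor and then compared between the diets. In such a difference a common scaling of the array cancels. Quantile normalization is not a common scaling, and the pairs were therefore also tested without it. Each of the 10 pairs was tested with the exact permutation test over 1716 splits, two-sided, with Benjamini-Hochberg adjustment over the 10 pairs. Of these, 7 had an adjusted P-value below 0.05, and the same 7 had an unadjusted P-value below 0.05. Among all pairs of the 243 miRNAs detected on all arrays, the share with an unadjusted P-value below 0.05 was 60.5%, so that differences of this kind were common between any 2 miRNAs in these tumors, and the share in the family was close to this background. Since the absolute value of a difference depends on the probes, only its shift between the diets is read.

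Between the locus on chromosome 1 and the Nfyc locus, the ratio of the members shifted with diet. Within a tumor, miR-30a-5p minus miR-30e-5p ranged from 1.28 to 2.12 (median 2.05) with curcumin and from 1.00 to 1.41 (median 1.15) in controls. In 6 of 7 curcumin-treated tumors the value lay above all controls, and tumor 5 lay among them. The shift was 0.71 (95% interval 0.41 to 1.01), a 1.64-fold change of the ratio of these arms (adjusted P = 0.00777, exact permutation test).

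Against the members from chromosome 15, miR-30a-5p shifted in the same direction. Its difference from miR-30b-5p ranged from 0.072 to 0.94 (median 0.78) with curcumin and from -0.15 to 0.24 (median -0.03) in controls, a shift of 0.69 (95% interval 0.39 to 0.99, adjusted P = 0.00777, exact permutation test). Relative to miR-30d-5p, the range was 0.93 to 1.99 (median 1.78) with curcumin and 0.88 to 1.21 (median 1.02) in controls, a shift of 0.63 (95% interval 0.30 to 0.97, adjusted P = 0.00971, exact permutation test). In each of these comparisons 6 of 7 curcumin-treated tumors lay above all controls, the exception being tumor 5.

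The 5p arm of miR-30c, which both the chromosome 1 and the Nfyc locus encode, took a place between their specific members. It fell behind miR-30a-5p, with miR-30a-5p minus miR-30c-5p at 0.80 to 1.46 (median 1.28) with curcumin and 0.75 to 0.98 (median 0.82) in controls, a shift of 0.39 (95% interval 0.18 to 0.60, adjusted P = 0.00971, exact permutation test). It gained on miR-30e-5p, with miR-30c-5p minus miR-30e-5p at 0.47 to 0.89 (median 0.66) with curcumin and 0.22 to 0.43 (median 0.37) in controls, a shift of 0.33 (95% interval 0.17 to 0.48, adjusted P = 0.00777, exact permutation test). The diet groups of this last pair did not overlap. It was 1 of 10 pairs without overlap, and 13.5% of all pairs of the 243 miRNAs had none. Without normalization between arrays the shift of miR-30c-5p minus miR-30e-5p was 0.49 and its groups overlapped, while the groups of miR-30a-5p minus miR-30e-5p, with a shift of 0.79, did not. The same 7 pairs were called without normalization (adjusted P-values of at most 0.0125, exact permutation test). On that scale, 61.0% of all pairs of the 243 miRNAs had an unadjusted P-value below 0.05 and 15.4% had no overlap, again close to the shares in the family.

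Relative to the members from chromosome 15, miR-30c-5p was also higher with curcumin. The shift of miR-30b-5p minus miR-30c-5p was -0.30 (95% interval -0.50 to -0.10, adjusted P = 0.00971, exact permutation test), and 6 of 7 curcumin-treated tumors lay below all controls. For miR-30c-5p minus miR-30d-5p the shift was 0.24 (95% interval 0.06 to 0.43, adjusted P = 0.0191, exact permutation test), with 6 of 7 above all controls. The latter reached 0.41 without normalization between arrays, and lost the threshold without control tumor 3 (adjusted P = 0.0505, exact permutation test) and without control tumor 6 (adjusted P = 0.0559, exact permutation test).

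No shift was called among miR-30b-5p, miR-30d-5p and miR-30e-5p, which come from 2 chromosomes. The shift of miR-30b-5p minus miR-30d-5p was -0.06 (95% interval -0.26 to 0.15, adjusted P = 0.611, exact permutation test). That of miR-30b-5p minus miR-30e-5p was 0.03 (95% interval -0.14 to 0.19, adjusted P = 0.752, exact permutation test), and that of miR-30d-5p minus miR-30e-5p was 0.08 (95% interval -0.03 to 0.20, adjusted P = 0.181, exact permutation test). In all 3 pairs the values of the diets overlapped. These intervals bound the shift and do not show that the 3 arms changed alike.

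**Figure D3:**
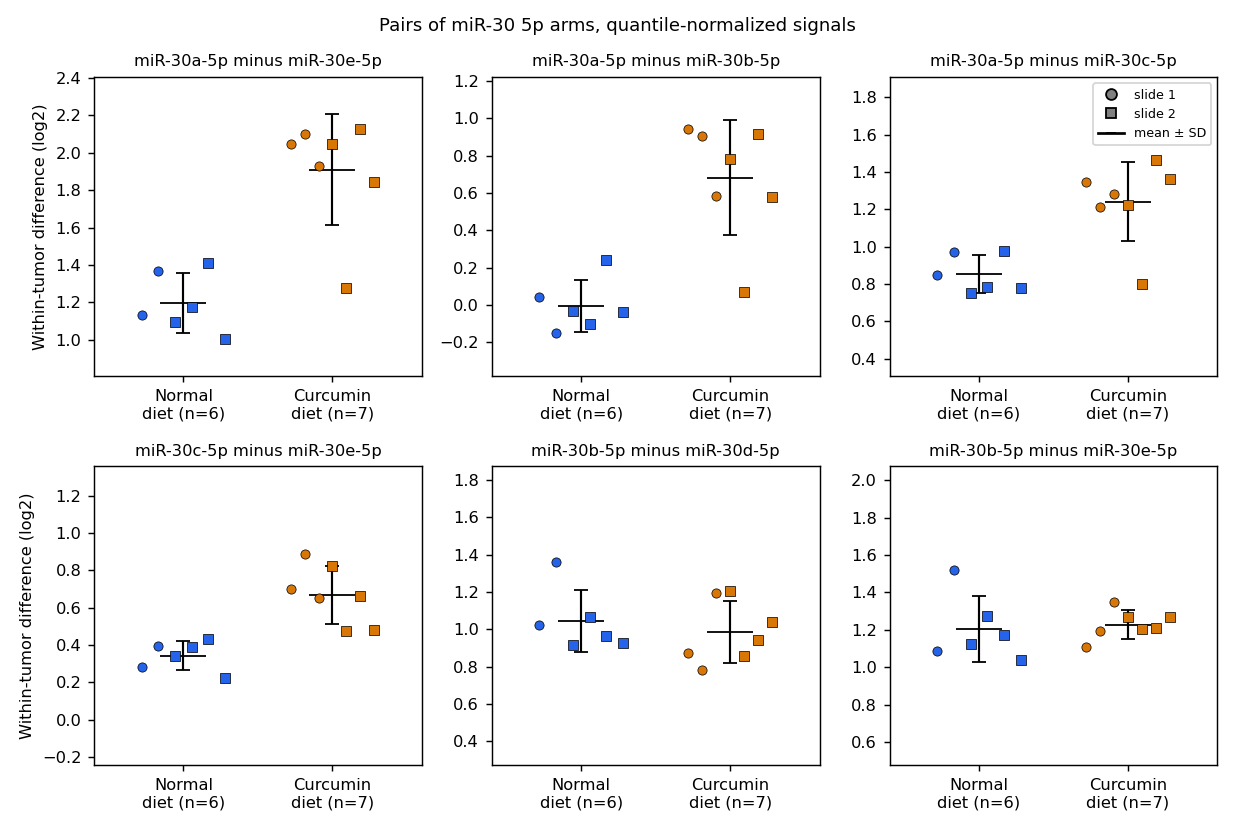
Within-tumor difference (log2, y axis) of 6 pairs of members by diet, with 1 point per tumor (circles slide 1, squares slide 2), the mean ± SD in black, and y axes of equal span. In the pairs with miR-30a-5p, 6 of 7 curcumin-treated tumors lie above the controls and tumor 5 lies among them, the groups of miR-30c-5p minus miR-30e-5p do not overlap, and the last 2 panels show no called shift (-0.06 and 0.03).

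Leaving out curcumin tumor 5, the tumor of the dim array, raised the shifts of miR-30a-5p. They were then 0.79 against miR-30b-5p, 0.46 against miR-30c-5p, 0.75 against miR-30d-5p and 0.82 against miR-30e-5p. The 7 pairs had an adjusted P-value of at most 0.00928 without it (exact permutation test). Within slides, miR-30a-5p minus miR-30e-5p shifted by 0.78 on slide 1 and by 0.65 on slide 2, and miR-30c-5p minus miR-30e-5p by 0.41 and 0.26. In a test that kept the slides apart, over 700 splits, the same 7 pairs were called with adjusted P-values of at most 0.0184 (exact permutation test).

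Several probes measure each arm, 3 for miR-30a-5p and 2 for each of the other members. When single probes were combined without normalization, a comparison added after the data had been seen, the 7 pairs kept an unadjusted P-value below 0.05 in all combinations, while the 3 others reached it in none. In the 6 combinations of miR-30a-5p and miR-30e-5p, the shift was between 0.71 and 0.87.

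**Figure D4:**
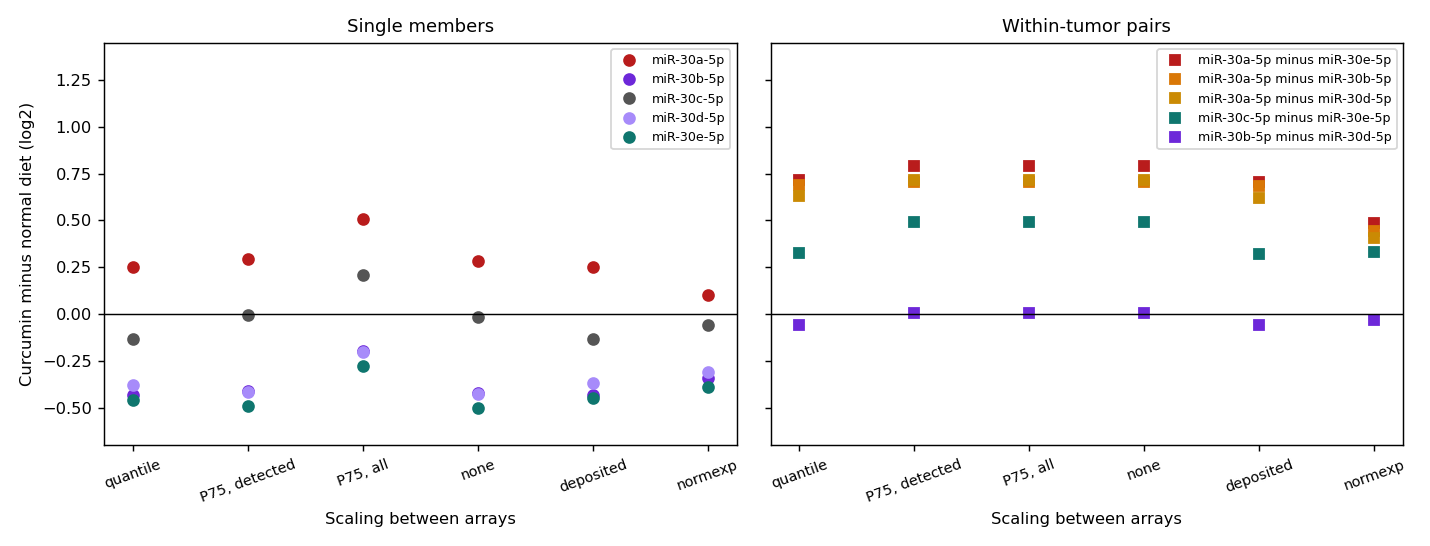
Difference of curcumin minus normal diet (log2, y axis) under 6 ways of scaling the arrays (x axis), for the 5 members (left) and 5 within-tumor pairs (right). From quantile normalization to the 75th percentile of all miRNAs all 5 members move up (miR-30c-5p from -0.14 to 0.21), and the pairs with miR-30a-5p remain above 0, with their smallest values under normexp. In the pairs a common scaling cancels, so both percentile scalings repeat the values without normalization.

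The shifts of miR-30a-5p were smaller with normexp, which was run on median spot signals and adds an offset of 50, so that the parts of the signal measure, the background model and the offset cannot be told apart. They fell to 0.49 against miR-30e-5p, 0.44 against miR-30b-5p, 0.41 against miR-30d-5p and 0.16 against miR-30c-5p, and the adjusted P-values of these pairs were at most 0.0316 (exact permutation test).

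The 3p arms detected on all arrays were compared in the same way, after the data had been seen. For miR-30a-3p minus miR-30e-3p the range was 0.30 to 1.57 (median 1.22) with curcumin and 0.24 to 0.65 (median 0.36) in controls. This shift of 0.78 (95% interval 0.37 to 1.19) had an adjusted P-value of 0.0122 over 3 pairs (exact permutation test). The shift of miR-30a-3p minus miR-30b-3p was 0.65 (adjusted P = 0.0498, exact permutation test), and it lost the threshold in 12 of 13 fits with 1 tumor left out and with the slides kept apart (adjusted P = 0.0664, exact permutation test). With normexp neither was called, the shift being 0.25 for miR-30a-3p minus miR-30e-3p (adjusted P = 0.0577, exact permutation test) and 0.098 for miR-30a-3p minus miR-30b-3p (adjusted P = 0.515, exact permutation test). For miR-30b-3p minus miR-30e-3p it was 0.13 (95% interval -0.17 to 0.43, adjusted P = 0.361, exact permutation test). Among all pairs of the 243 miRNAs detected on all arrays, 60.5% had an unadjusted P-value below 0.05 by this permutation test. Shifts of this kind were therefore common and do not set the 3p arms apart.

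The miRNAs whose levels followed each member most closely were sought among the 242 other miRNAs detected on all arrays, after the mean of each diet had been subtracted. Pearson's r over the 13 tumors is given as a description, since these are the highest of many and all points of a tumor come from 1 array and 1 normalization. Closest to miR-30a-5p were miR-151-5p (r = 0.92), miR-148b-3p (0.92) and miR-99b-5p (0.91). The nearest to miR-30b-5p were miR-149-5p (0.97), miR-677-3p (0.95) and miR-361-5p (0.94), and to miR-30c-5p they were miR-186-5p (0.93), miR-324-3p (0.92) and miR-582-5p (0.90). Only miR-30d-5p and miR-30e-5p had another member among their closest, namely each other (r = 0.93). Next came miR-702 (0.90) and miR-3096b-3p (0.90) for miR-30d-5p, and let-7a-1-3p (0.92) and miR-149-5p (0.90) for miR-30e-5p.

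Beside the miR-30 family, other families of several loci gave different counts in the same limma fit. Of the 9 members of let-7 and miR-98, 1 was called higher with curcumin, let-7e-5p, and the median difference was 0.12. Both members of miR-26 were called higher, by 0.90 and 0.93. The difference between these families and miR-30 was not tested.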

How the data were processed

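The authors hybridized Cy3-labeled tumor RNA to 1-color miRNA arrays and deposited scanner intensity values made with Feature Extraction (version 10.10.1.1, per the labels and file headers), which are background-subtracted and not normalized between arrays. A table of log2 values per array was deposited as well. All 14027 of its values were met within 1e-04 by summing the detected probes (all probes where a miRNA was not detected), quantile normalizing, adding 4.39 and taking log2.

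Here, intensities were summed over the probes of a miRNA, for 1079 mouse miRNAs, and quantile normalized over 13 arrays. Values at or below 0 (7215 of 14027, none of a miR-30 member) were set to the smallest positive value, 0.00765, before log2. Another 57 virus miRNAs were left out. No spot was saturated. The number of arrays limits the precision, and no 2 arrays held identical values.

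Groups and tumor numbers were taken from the labels. The comparison of the diets used limma 3.58.1 in R 4.3.3 (two-sided, no covariates, Benjamini-Hochberg adjustment over all 1079 miRNAs, threshold 0.05). The limma step was tested on simulated data. Single values and pairs were compared with exact permutation tests over 1716 splits, whose smallest P-value is 0.000583. Intervals of pairs are from the pooled SD of both diets. Alternatives covered scaling, background, floor, filter, slide, tumors left out, single probes and the methods' t-test.

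The miRNAs named are the members, their 3p arms, miR-384-5p, the 3 miRNAs closest to each member by Pearson's r, and fixed lists of 2 other families and of cell type markers. Members and lists were chosen with earlier results of these data known.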

Additional observations from a re-analysis of the deposited data

Results flagged for a closer look

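In 48 groups of tumor values checked for a value far from the rest of its diet group, 5 stood apart. Chance gives about 1 in 20 in independent groups, but these groups share values, so the count cannot be set against that rate. Of the 5, 4 were differences of miR-30a-5p in curcumin tumor 5, the tumor of the dimmest array, and all used its same miR-30a-5p value. There, miR-30a-5p minus miR-30b-5p was 0.072 (nearest tumor of the group 0.576), miR-30a-5p minus miR-30c-5p was 0.803 (nearest 1.21), miR-30a-5p minus miR-30d-5p was 0.931 (nearest 1.62) and miR-30a-5p minus miR-30e-5p was 1.28 (nearest 1.84). In control tumor 2, miR-30b-5p minus miR-30d-5p was 1.36 (nearest 1.07).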

How the results depend on the processing

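Scaling between arrays changed the levels, while a common scaling of an array cancels in the pairs. With the quantile normalization used above, 171 miRNAs were called, 52.6% of them higher with curcumin. The count was 105 with the 75th percentile of all miRNAs (69.5% higher) and 49 without normalization (20.4% higher). It was 34 on slide 1, 3 on slide 2, and 103 to 184 with 1 tumor left out (lowest without curcumin tumor 6 and without control tumor 4). The median difference over the 243 miRNAs detected on every array was -0.09 with quantile normalization and -0.26 without normalization. It was -0.25 with the 75th percentile of detected miRNAs and -0.04 with that of all miRNAs. The members' median was -0.38, -0.42, -0.41 and -0.20 in the same order. The call of miR-30b-5p was lost with the 75th percentile of detected miRNAs (-0.41), of all miRNAs (-0.20), without normalization (-0.42), with normexp (-0.34), on slide 1 (-0.60), on slide 2 (-0.35) and on its dimmer probe (-0.22). That of miR-30e-5p was lost with the 75th percentile of all miRNAs (-0.28), without normalization (-0.50), with the slide as a block (-0.46), on slide 1 (-0.51), on slide 2 (-0.44) and on its dimmer probe (-0.30). With 1 tumor left out, miR-30b-5p ranged from -0.53 to -0.38, miR-30d-5p from -0.46 to -0.32 and miR-30e-5p from -0.55 to -0.38. The sign of miR-30c-5p turned with the 75th percentile of all miRNAs (0.21) and on its dimmer probe (0.27). The sign of miR-30c-1-3p turned in the deposited log2 values (-0.25), with the 75th percentile of detected (-0.43) or all miRNAs (-0.21) and without normalization (-0.44), and it ranged from -0.11 to 0.58 with 1 tumor left out. Of the 3p arms, 1 was called with the 75th percentile of detected miRNAs and 1 with normexp (miR-30e-3p both times), and 2 without normalization (also miR-30b-3p). The cause was not tested.

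The pairs of miR-30a-5p with miR-30b-5p, miR-30c-5p, miR-30d-5p and miR-30e-5p, and miR-30b-5p minus miR-30c-5p and miR-30c-5p minus miR-30e-5p, kept their call in all scalings and with each tumor left out. On slide 1 alone, where the smallest P-value is 0.1 by the exact permutation test, no call was possible, and the shifts were 0.86, 0.37, 0.62, 0.78, -0.50 and 0.41. On slide 2 alone (smallest 0.0286 by the exact permutation test) they were 0.57, 0.39, 0.61, 0.65, -0.18 and 0.26, none called after adjustment. The shift of miR-30c-5p minus miR-30d-5p was 0.26 and 0.22 on the slides and 0.19 to 0.29 with 1 tumor left out. Among the pairs without a call, miR-30b-5p minus miR-30d-5p and miR-30b-5p minus miR-30e-5p changed sign. The former was 0.0079 under both percentiles and without normalization, 0.043 on slide 2 and -0.094 to 0.0060 with 1 tumor left out. The latter was -0.088 on slide 1 and -0.0076 to 0.089 with 1 tumor left out. The shift of miR-30d-5p minus miR-30e-5p kept its sign and ranged from 0.055 to 0.113 with 1 tumor left out. It was called without curcumin tumor 4 (adjusted P = 0.0325, exact permutation test).

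Of 6 pairs of tumors with the same number, 4 had a correlation of their deviations over 243 miRNAs above 0.1 (0.113 to 0.198), and the others had 0.021 (number 3) and -0.30 (number 5, with the dimmest array). Since neither the labels nor every correlation tie the numbers together, they were not used to pair tumors. With the replicate number as a block, 67 miRNAs were called, miR-30b-5p was -0.40 and miR-30e-5p -0.42, neither called, and the shifts of the 7 called pairs were 0.71, 0.37, 0.64, 0.72, -0.34, 0.27 and 0.36, each with an adjusted P-value of 0.0893 over 64 exact sign flips.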
